A study of Mus musculus with 12 samples.

Results

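The genes described here are 47 regulators of pre-mRNA splicing among the 21896 protein-coding genes of the mouse gene table: 11 SR proteins, 21 hnRNP proteins, 4 SR-related proteins (Srrm1, Srrm2, Tra2a and Tra2b), 5 Mbnl and Celf proteins, 3 Ptbp proteins, 2 Nova proteins and Qk. Their selection rule uses gene symbols and no measured value, but it was chosen with earlier results of these data known. SR and hnRNP genes were taken by their naming pattern and the other families by name. Over these genes the 6 m6A peak lists held 439 of 118075 peaks, and overlapping peaks of 1 gene merged into 143 sites.

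The study profiled N6-methyladenosine (m6A), a methyl mark on adenosines of RNA, through antibody capture of poly(A) RNA fragments. It compared 3 libraries of mouse spermatogonial stem cells (SSC), the germline stem cells of the testis, with 3 libraries of induced neural stem cells (iNSC) that were derived from SSC. The SSC were grown on inactivated STO fibroblast feeders in serum with LIF, EGF, bFGF and GDNF. For conversion, SSC were separated by differential plating, seeded on laminin and kept in the same medium with 1 µM retinoic acid for 24 h. They were then grown in a neural medium with N2, B27, little serum, bFGF and 10 µM SB431542, an inhibitor of TGF-beta receptor kinases. Groups follow the sample titles and source names, with which the separate cell type field is at odds in 12 of 12 samples, giving SSC for iNSC and the reverse. Strain, genotype, age and number of animals are not in the labels used here, nor is how long the conversion ran, and the labels do not say whether the numbered replicates are separate cultures. The spread between libraries may therefore be technical.

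Splicing regulators choose which exons enter the mature message. SR proteins bind exonic enhancers through RNA recognition motifs and recruit the spliceosome through a domain rich in arginine and serine, whereas many hnRNP proteins act as repressors at silencer sequences. Mbnl and Celf proteins often oppose each other on developmentally timed exons, Ptbp1 represses neuronal exons, and Nova1 and Nova2 are RNA-binding proteins best known from neurons. Many of these genes control their own messages through alternative exons. Several of the proteins are also tied to m6A itself: the nuclear reader Ythdc1 recruits Srsf3 and holds back Srsf10, and Hnrnpc binds stretches of U that m6A opens.

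Peaks at the annotated start of a message were the sites where deposited coordinates and reference sequence could be set side by side. The sequences shown are bases 21 to 50 after the RefSeq start (GRCm38.p6, transcribed strand, 5′ to 3′), with GGAC, the commonest form of the m6A consensus, in capitals. The first 5 lie inside a peak of all 6 lists. The Nova1 stretch lies in a peak of all 3 iNSC lists and SSC replicate 1, and the Tra2b stretch in a peak of SSC replicate 3 and iNSC replicate 3.
Hnrnpu, chr1:178337766-178337795, minus strand: cccctgcgagaGGACgttgcgtgctcgctc
Srrm1, chr4:135353097-135353126, minus strand: ggcggcaagatGGACgcgggattcttccgc
Hnrnpd, chr5:99978889-99978918, minus strand: cggcgccattaaagcgaggaggaggcgaga
Mbnl2, chr14:120275689-120275718, plus strand: ctcacagcaacagagtttagactgtctttg
Qk, chr17:10319312-10319341, minus strand: tgaggaggaggagagccgcggaggaagagg
Nova1, chr12:46818718-46818747, minus strand: tggcggcagctcccattcagcagaacggga
Tra2b, chr16:22265956-22265985, minus strand: gccttcgggggagtgggtgGGACcaggtta

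Of 62 such stretches from the 44 genes with a RefSeq start sequence, 8 stretches of 7 genes lay inside a peak of all 6 lists. A further 2, of Nova1 and Hnrnpa0, lay inside a peak of all 3 iNSC lists but not of all SSC lists. GGAC was present in 2 of these 10 stretches (20%), those of Hnrnpu and Srrm1. It was present in 7 of all 62 (11.3%), and in 11.7% of the 32851 start stretches of all genes in the table on the transcribed strand (10.5% on the other strand). A match only says that the letters are there, and 30 bases cover a small part of most peaks.

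At least 1 list held a peak for 40 of the 47 genes (85.1%), against 13164 of all 21896 protein-coding genes (60.1%). Most of the members with peaks were shared by both cell types. All 6 lists held a peak for 17 members: Srsf4, Srsf11, Hnrnpd, Hnrnpf, Hnrnpl, Hnrnpll, Hnrnpm, Hnrnpr, Hnrnpu, Hnrnpul1, Hnrnpul2, Srrm1, Srrm2, Celf2, Mbnl2, Nova1 and Qk. That is 42.5% of the 40 with a peak, and the background over all genes with a peak was 30.0%. A gene with a peak in all 3 lists of 1 group and in none of the other is called SSC-only or iNSC-only here. Nova2 was the single SSC-only member, 2.5% of 40 against a background of 11.3%. No member was iNSC-only, against a background of 2.19%. Leaving out 1 library moved the SSC-only count of members to 5 without SSC replicate 2, 3 without SSC replicate 3 and 2 without iNSC replicate 3. The background was not computed with a library left out.

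Of the other 22 members with a peak, 9 had peaks in both groups but not in all lists (Hnrnpa0, Hnrnpc, Hnrnpdl, Hnrnpk, Mbnl1, Ptbp3, Srsf10, Tra2a and Tra2b). In 11 members peaks were listed in 1 or 2 SSC lists alone: Srsf6, Srsf7, Srsf12, Hnrnpa1l2-ps2, Hnrnpa2b1, Hnrnpa3, Hnrnpab, Hnrnph1, Celf1, Mbnl3 and Ptbp2. Of these, Hnrnpa2b1, Hnrnph1, Celf1 and Ptbp2 had peaks in SSC replicate 1 alone, the longest list. Srsf9 and Hnrnph2 had a peak in 1 iNSC list alone. The SSC lists were the longer ones, and the shares of these patterns over all genes were not computed. The 7 members without a counted peak were Srsf1, Srsf2, Srsf3, Srsf5, Hnrnpa1, Hnrnph3 and Ptbp1. Their spans were short, with a median of 7259 bases (3779 to 10713), against a median of 24818 bases for the 40 with a peak. A peak needs both a methylated site and enough RNA, and the lists alone cannot tell a message that is absent from one without m6A. Nor can fewer cells of a type and less RNA per cell be told apart in such bulk samples.

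**Figure D1:**
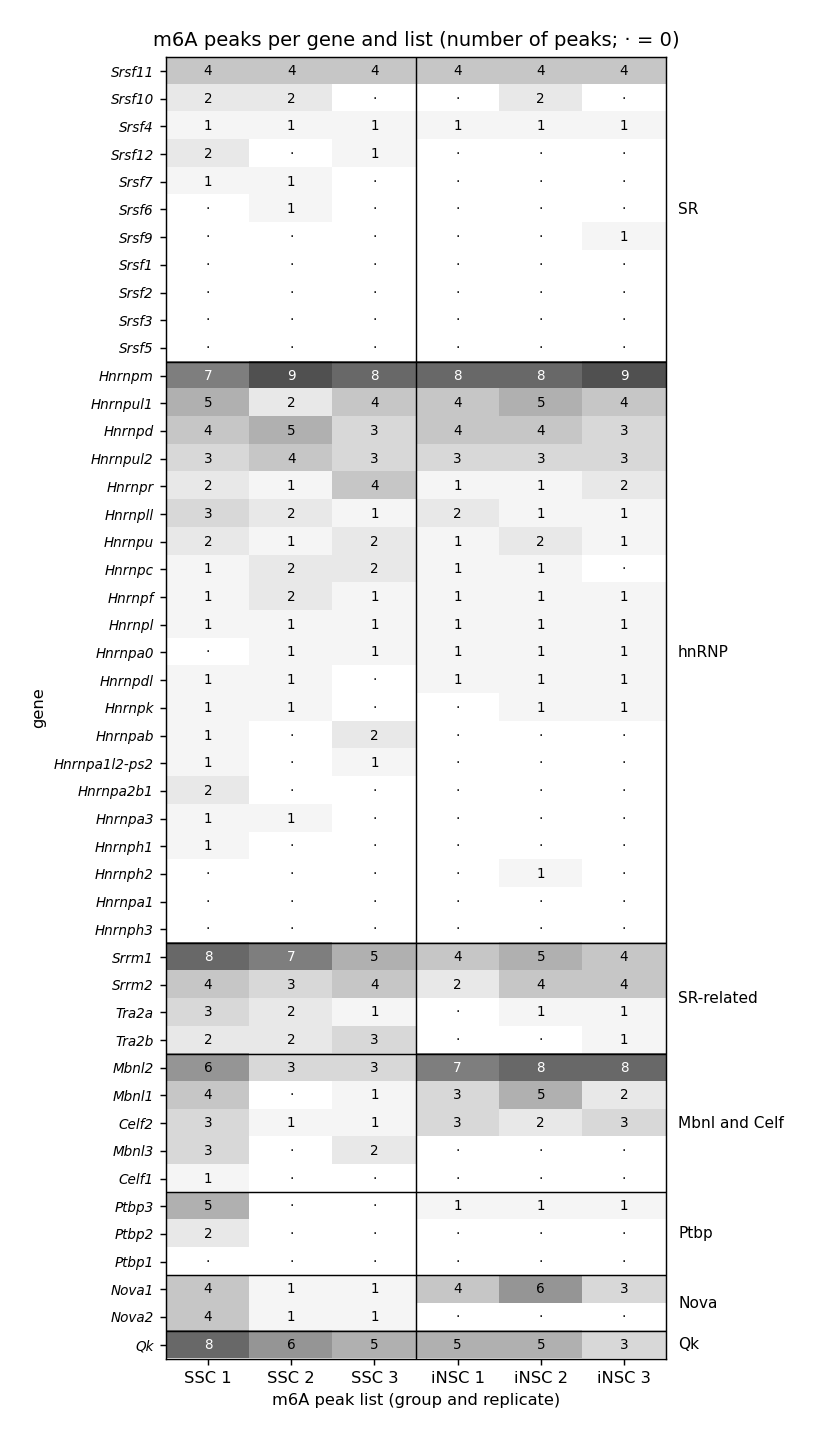
Number of m6A peaks over each of the 47 genes (vertical axis, by family) in each of the 6 lists (horizontal axis, SSC on the left and iNSC on the right), where a dot stands for 0. Hnrnpm, Srrm1, Mbnl2 and Qk reach 8 or more peaks in a list, Srsf11 has 4 in every list, and Nova2 has peaks in the SSC lists alone.

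More members carried a peak in SSC lists than in iNSC lists, as was the case over all genes. A peak was listed for 36, 28 and 27 members in SSC replicates 1 to 3 and for 22, 26 and 25 in iNSC replicates 1 to 3, and the groups did not overlap. As a share of the 47 genes this was 64.5% ± 10.5 in SSC and 51.8% ± 4.43 in iNSC (SD, n = 3 each). The difference of 12.8 percentage points was 6.74 without SSC replicate 1 and 8.51 with lists of equal length. Over all protein-coding genes the shares were 42.5% ± 4.63 and 31.0% ± 1.31. The lists themselves differed in length, with 27597, 19728 and 24775 peaks in SSC and 13913, 16002 and 16060 in iNSC. With 3 libraries against 3 the smallest p an exact permutation test allows is 0.1, so none of these group differences could pass 0.05.

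Among members with a peak, the number of peaks per member overlapped between the cell types. Members with a peak had 2.59 ± 0.261 peaks each in SSC and 2.75 ± 0.171 in iNSC (SD, n = 3 each), a difference of -0.17 that was -0.41 with lists of equal length. Over all genes with a peak the numbers were 2.51 ± 0.188 and 2.20 ± 0.0867. The covered length over all members was 49.4, 28.7 and 29.2 kb in SSC and 35.2, 48.5 and 36.6 kb in iNSC, again overlapping. Keeping only the better-scoring 50% of each list turned the sign of both differences. SSC replicate 1 held 104 member peaks against 68 and 66 in the other SSC lists, and 32 of the 51 sites listed once were its own.

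The members' peaks were not wider in iNSC, unlike those of all genes. Their median width was 233 ± 23.8 bases in SSC and 227 ± 12.1 in iNSC, against 197 ± 6.66 and 389 ± 33.6 over all genes (SD, n = 3 each). Many of the strongest peaks of each list share a score of 3100 (982 to 2735 peaks) and few exceed it (47 to 86). A peak with a score of at least 3100 is called capped here. Such scores were held by 24.8% ± 10.9 of member peaks in SSC and 26.4% ± 2.90 in iNSC. The same shares over all peaks were 5.24% ± 2.02 and 16.3% ± 1.37. The median member peak scored above 82.0% ± 7.34 of its own list in SSC and above 61.8% ± 4.76 in iNSC. This share is called the within-list percentile from here on. Because more iNSC peaks sit at the cap, a peak at 3100 has a percentile of 92.4 to 96.3 in SSC and 82.4 to 85.0 in iNSC, so percentiles rank peaks within a list and are not compared between groups. The first 500 bases of the gene held 12.9% ± 4.02 and 11.6% ± 3.82 of member peaks in SSC and iNSC. The shares over all genes were close, at 11.14% ± 2.62 and 11.95% ± 2.55. This window counts from the edge of the gene span and not from each RefSeq start. Sites holding start stretches of Nova1, Hnrnpu, Hnrnpl and Srrm2 began 705, 1094, 2126 and 12660 bases in, and so fell outside it. The last 2000 bases held 17.5% ± 5.76 and 18.3% ± 2.36 of member peaks, against 18.9% ± 1.38 and 26.6% ± 1.52 over all genes.

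**Figure D2:**
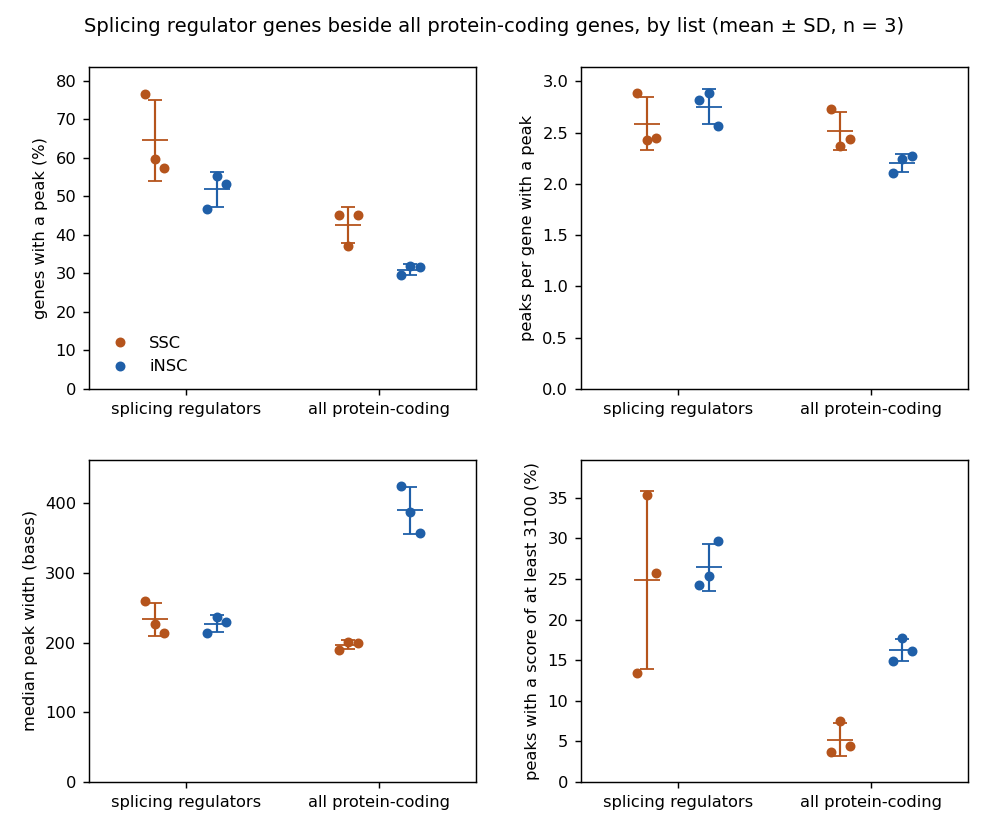
Share of genes with a peak, peaks per gene with a peak, median peak width and share of peaks with a score of at least 3100 (vertical axes) for the splicing regulators and for all protein-coding genes (horizontal axis). Points are the 6 lists and bars show the mean ± SD (n = 3). The median width of all genes' peaks is 389 bases in iNSC and 197 in SSC, while the splicing regulators stand at 227 and 233.

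Sites of the members were shared between lists more often than sites of all genes. All 6 lists held 29 of the 143 member sites (20.3%), against a background of 10.2% over 47111 sites, and 1 list alone held 51 (35.7%), against 46.3%. The 29 shared sites lay in 14 genes, among them 5 in Hnrnpm, 4 in Srrm1 and 3 each in Srsf11, Hnrnpd and Qk. In 19 of the 29 the deposited edges were the same in all 6 lists. Their median width was 237 bases (54 to 2552). The gene table gives spans without exons, so whether a site is exonic, intronic or untranslated was not analysed here.

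Among the SR proteins, Srsf11 and Srsf4 were the steady carriers and 4 of 11 genes had no peak. The 7 SR genes with a peak held 14 sites, of which 4 were in all 6 lists and none was specific to a group. Srsf11, an SR-like protein of nuclear speckles, had 4 peaks in every list, with 2772, 1024 and 1891 covered bases in SSC and 1365, 2081 and 1651 in iNSC. Its strongest site lay at the 3′ end of the gene (chr3:158010473-158012203) and was capped in all 6 lists. Srsf10, which can repress splicing when it loses its phosphates, had 2 peaks in SSC replicates 1 and 2 and in iNSC replicate 2, and none in the other 3 lists. Its covered length was 1966, 2435 and 0 bases in SSC and 0, 3725 and 0 in iNSC, so replicates of 1 group disagreed more than the groups did. Srsf4 had a single peak of 215 bases (chr4:131897657-131897871) with the same edges in all 6 lists. The Srsf4 peak ranked at percentiles 43.2, 70.2 and 49.3 in SSC and 5.73, 56.0 and 55.2 in iNSC.

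The hnRNP family, the one with the most genes, held 55 sites in 19 of 21 genes, and 14 of these sites (25.5%) were in all 6 lists, beside 20.3% over all members. Its summed peaks numbered 37, 33 and 33 in SSC and 28, 31 and 28 in iNSC. The covered length was nearly level, at 19410, 15219 and 16506 bases in SSC and 16127, 18091 and 14997 in iNSC. Hnrnpul2, a relative of the nuclear scaffold protein Hnrnpu, had the largest covered length of the family. It measured 3806, 3131 and 3017 bases in SSC and 3213, 2680 and 2869 in iNSC, which overlap. A 1413-base site at the Hnrnpul2 start (chr19:8819401-8820813) was capped in all 6 lists, and a 2552-base site ended 137 bases before its 3′ end. Hnrnpm, which binds GU-rich sequence, had the most peaks of the family, 7, 9 and 8 in SSC and 8, 8 and 9 in iNSC. A further peak across the Hnrnpm start, capped in all 6 lists, also overlaps Marchf2 on the same strand and was not counted for either gene.

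Hnrnpa0 and Hnrnpc were the hnRNP genes whose covered length did not overlap between groups. Hnrnpa0, an intronless gene that binds AU-rich elements, was covered over its entire span of 2678 bases in all 3 iNSC lists, each time at the score cap. In SSC it had no peak in replicate 1 and capped peaks of 1716 and 1738 bases in replicates 2 and 3. Hnrnpc went the other way, with 788, 483 and 1315 covered bases in SSC and 161, 161 and 0 in iNSC. Over all 40 members with a peak, 2 (5%) were higher without overlap in SSC, Hnrnpc and Nova2, and 2 (5%) in iNSC, Hnrnpa0 and Nova1. The backgrounds were 15.5% and 17.5%. Each of these 4 had an exact permutation p of 0.1, the smallest possible, and a Benjamini-Hochberg adjusted p of 0.302 over 13164 genes. No gene passed 0.05 before or after adjustment in this test, which 3 libraries against 3 cannot reach.

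Sites specific to 1 group numbered 10 in 8 genes, shares near those over all genes. A site was SSC-only or iNSC-only by the same rule as a gene. There were 6 SSC-only sites (4.20% of 143, background 5.61%), in Hnrnpc, Srrm2, Nova2, Tra2b (2 sites) and Qk, which is 5 of 40 genes (12.5%, background 14.2%). The 4 iNSC-only sites (2.80%, background 3.38%) lay in Nova1, Celf2 (2 sites) and Mbnl2, 3 of 40 genes (7.5%, background 10.3%). The 3 SR-related sites among these were SSC-only, 2 in Tra2b and 1 in Srrm2. The 3 Mbnl and Celf sites were iNSC-only, 2 in Celf2 and 1 in Mbnl2. With 2 genes on each side, these counts do not give a family a direction. The SSC-only count was 10 without SSC replicate 3, and the iNSC-only count was 9 without SSC replicate 1 and 7 without iNSC replicate 3. At equal list length there were 5 SSC-only and 9 iNSC-only sites. Backgrounds were not computed under these other settings. With the better-scoring 50% of each list none of the 4 iNSC-only sites kept its call, and 5 of the 6 SSC-only sites did, all but that of Qk. That cut is a within-list rank and fell at higher scores in iNSC. A Celf2 peak scoring 414.13 in iNSC replicate 2 was cut, and the Nova2 peak scoring 277.52 in SSC replicate 3 stayed. The setting therefore cannot say whether SSC-only or iNSC-only calls are the firmer ones.

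**Figure D3:**
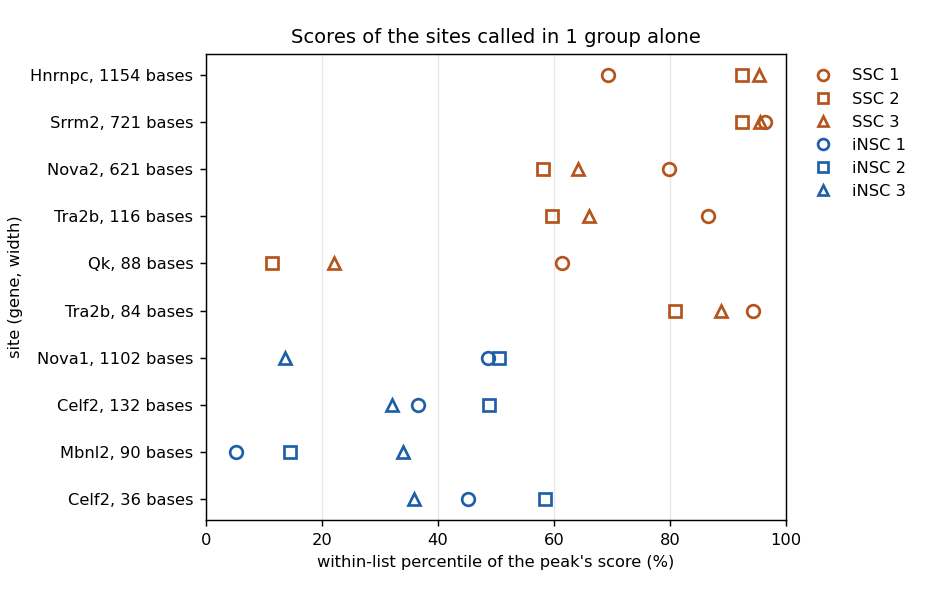
Within-list percentile of the peak score (horizontal axis, %) for the 10 sites called in all 3 lists of 1 group and in none of the other (vertical axis, gene and site width). Each symbol is 1 library. Among the SSC-only sites the Srrm2 site is capped in all 3 lists, and among the iNSC-only sites the highest percentile is 58.4. Percentiles rank peaks within a list and are not compared between groups.

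Among the SR-related genes, Srrm2, a large scaffold protein of nuclear speckles, had a capped SSC-only site and, downstream of it, a long peak in 2 iNSC lists. Its SSC-only site (chr17:23811900-23812620, plus strand, 721 bases) was capped in all 3 SSC lists, and the nearest iNSC peak lay 1854 bases away. Downstream, a peak of 6569 bases (chr17:23815122-23821690) was listed in iNSC replicates 2 and 3 and in no SSC list. It was capped in iNSC replicate 2 and at percentile 48.6 in iNSC replicate 3. That peak set the covered length of Srrm2, at 1492, 1204 and 1732 bases in SSC and 290, 7387 and 7580 in iNSC. The iNSC replicates thus lay on both sides of the SSC values. A 212-base Srrm2 site (chr17:23803187-23803398) was in all 6 lists.

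Tra2b, which binds GA-rich exonic enhancers and promotes inclusion, had its 2 SSC-only sites inside the gene, away from the shared start peak. The first (chr16:22250865-22250980, minus strand, 116 bases) ranked at percentiles 86.6, 59.7 and 66.0 in the SSC lists. The second (chr16:22249050-22249133, 84 bases) ranked at 94.3, 80.9 and 88.8. Each had identical edges in its 3 lists. In iNSC the gene had a single peak, the 265-base start peak in replicate 3 whose sequence is given above, and none in replicates 1 and 2. Its covered length of 200, 200 and 465 bases in SSC and 0, 0 and 265 in iNSC overlapped between groups. The paralogue Tra2a had 3, 2 and 1 peaks in SSC and 0, 1 and 1 in iNSC.

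Srrm1, another speckle protein and splicing coactivator, showed no group-specific site. It had 8, 7 and 5 peaks in SSC and 4, 5 and 4 in iNSC, with 4 sites in all 6 lists. The covered length was 2821, 3557 and 3590 bases in SSC and 3402, 2619 and 3367 in iNSC. One Srrm1 site, the 176-base start site with the GGAC shown above, ranked at percentiles 90.4, 83.0 and 79.6 in SSC and 48.5, 66.7 and 43.1 in iNSC.

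The SSC-only site of Hnrnpc (chr14:52074007-52075160, minus strand, 1154 bases) lay 630 bases before the 3′ end of the gene. It ranked at percentiles 69.3, 92.4 and 95.3 and was capped in SSC replicate 2. The nearest iNSC peak, 2243 bases away, was a 161-base site (chr14:52077403-52077563) that SSC replicates 2 and 3 shared with iNSC replicates 1 and 2. The site near the 3′ end was therefore SSC-only while the upstream one was not.

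**Figure D4:**
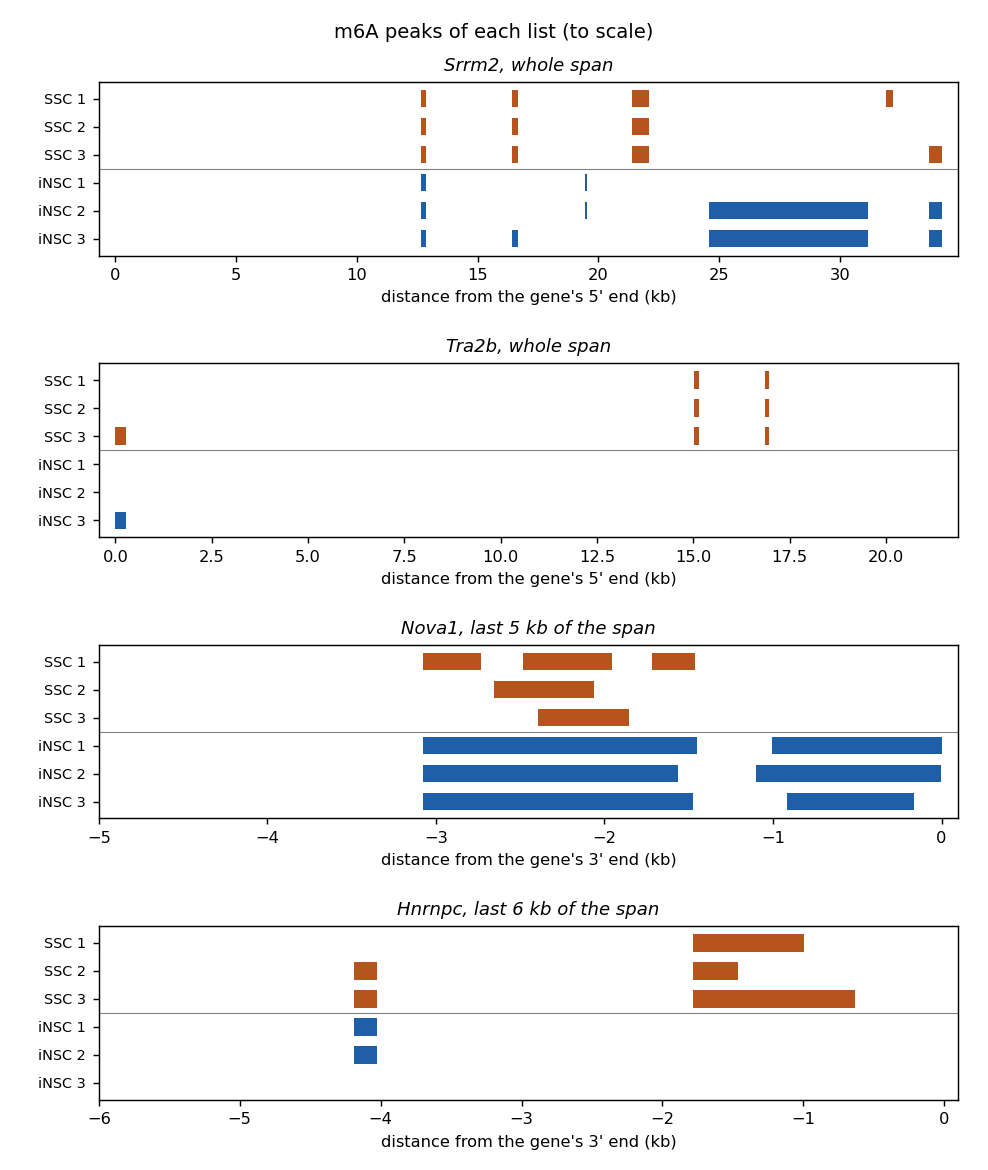
Peaks of the 6 lists along Srrm2 and Tra2b (distance from the 5′ end, kb) and along the last 5 kb of Nova1 and the last 6 kb of Hnrnpc (distance from the 3′ end, kb), with each bar 1 peak drawn to scale. The iNSC lanes have no bar at the positions of the SSC-only bars of Srrm2, Tra2b and Hnrnpc, though each gene has iNSC bars elsewhere. Nova1 has long bars at its 3′ end in iNSC.

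The pair of Nova genes differed between groups in opposite directions, both with no overlap in covered length. Nova2 had 4, 1 and 1 peaks in SSC and none in iNSC, covering 1172, 621 and 391 bases. The single site in all 3 SSC lists (chr7:18958138-18958758, plus strand, 621 bases) ranked at percentiles 79.7, 58.2 and 64.2. Nova1 carried 1290, 595 and 542 covered bases in SSC and 2862, 3347 and 2516 in iNSC, with no overlap. Its iNSC-only site (chr12:46697895-46698996, minus strand, 1102 bases) reached the 3′ end of the gene and ranked at 48.7, 50.5 and 13.7. Only 362 bases separated it from the nearest SSC peak. That neighbouring site (chr12:46699347-46700973) was in all 6 lists, capped in all 3 iNSC lists and at percentiles of 43.7, 11.8 and 54.3 in SSC. The Nova1 start site was listed in all 3 iNSC lists (percentiles 68.2, 68.0 and 73.2) and, of the SSC lists, in replicate 1 alone (12.5).

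Because Nova genes are known from neurons, markers of other cells stand beside that result. Of 5 neuron marker genes, a peak was found for 2, 2 and 3 in SSC, against 0 in each iNSC list. Of 8 neural stem cell markers, 3, 3 and 3 had a peak in SSC and 2, 2 and 2 in iNSC, with Pax6 iNSC-only and Sox2 and Msi1 SSC-only. Germ cell markers had a peak for 6, 4 and 6 of 8 genes in SSC and 1, 1 and 2 in iNSC. Fibroblast markers, which the feeder layer could supply, had one for 3, 2 and 5 of 6 genes in SSC and 3, 2 and 3 in iNSC. Peaks report methylated RNA and not expression, and the part of other cells in the Nova result was not tested.

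Mbnl and Celf genes had more peaks in iNSC than in SSC replicates 2 and 3, but not than in SSC replicate 1. The 5 genes held 17, 4 and 7 peaks in SSC and 13, 15 and 13 in iNSC. Mbnl2, a muscleblind protein that promotes adult splicing patterns, had 6, 3 and 3 peaks in SSC and 7, 8 and 8 in iNSC. Its covered length of 3064, 892 and 1021 bases in SSC and 2928, 3048 and 2747 in iNSC overlapped through SSC replicate 1. The iNSC-only Mbnl2 site (chr14:120306452-120306541, plus strand, 90 bases) was weak, at percentiles 5.13, 14.5 and 33.9. A 619-base Mbnl2 site (chr14:120324794-120325412) was in all 6 lists and capped in each iNSC list. Mbnl1 had 4, 0 and 1 peaks in SSC and 3, 5 and 2 in iNSC, while the X-linked Mbnl3 had 3, 0 and 2 in SSC and none in iNSC.

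Celf2, which binds GU-rich elements, had iNSC-only sites of 132 bases (chr2:6560659-6560790, minus strand) and 36 bases (chr2:6962379-6962414). The longer one ranked at percentiles 36.5, 48.8 and 32.0 and the shorter one at 45.1, 58.4 and 35.8. Celf2 covered length was 1973, 411 and 64 bases in SSC and 704, 162 and 378 in iNSC. The SSC mean was 401 bases above the iNSC mean, and -177 bases relative to it without SSC replicate 1. Celf1 had 1 peak, in SSC replicate 1.

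The Ptbp genes, whose products repress exons through CU-rich tracts, gave little. Ptbp1 had no peak and Ptbp2, the form that takes over in developing neurons, had 2 peaks in SSC replicate 1 alone. Ptbp3 had 5, 0 and 0 peaks in SSC and 1, 1 and 1 in iNSC. Its iNSC peak near the 3′ end covered 2783, 2944 and 841 bases. Without SSC replicate 1, Ptbp3 would be the only iNSC-only member.

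Qk, the quaking RNA-binding protein of glia and other cells, had 8 sites, 3 of them in all 6 lists. It had 8, 6 and 5 peaks in SSC and 5, 5 and 3 in iNSC, with 4579, 1422 and 1122 covered bases against 1334, 1334 and 890, which overlap. The 630-base Qk site at its start ranked at percentiles 88.4, 92.4 and 90.4 in SSC and 80.7, 61.8 and 81.9 in iNSC. The SSC-only site (chr17:10217716-10217803, minus strand, 88 bases) ranked at percentiles 61.3, 11.4 and 22.0. The nearest iNSC peak lay 1257 bases away.

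The rest of the splicing machinery was measured through 116 further genes: 43 of the core spliceosome, 8 kinases of SR proteins and 65 other regulators. At least 1 list held a peak for 104 of them (89.7%), and 47 of those 104 (45.2%) had a peak in all 6 lists, beside the 30.0% background given above. SSC-only genes numbered 11 (10.6% of 104, background 11.3%) and iNSC-only genes 0 (background 2.19%). The SSC-only genes included Sf3a3 with 4, 4 and 4 peaks and Sf3b2 with 2, 4 and 3, both subunits of the U2 particle. They also included Luc7l, a U1-associated factor, with 5, 6 and 6 peaks, and Khdrbs3, a STAR family RNA-binding protein like Qk, with 7, 4 and 5. All 4 had 0 peaks in every iNSC list. Of the 8 kinases, Srpk1, Srpk2 and Prpf4b had a peak in all 6 lists, and none was specific to a group.

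Some peaks over the members' spans were not counted for them. Peaks on the plus strand within Hnrnpk (chr13:58402248-58402517) and Hnrnph3 were in all 6 lists and belong by strand to Rmi1 and Rufy2. Hnrnpab held 2 peaks on the strand opposite to it, in SSC replicate 2 and iNSC replicate 3. In all, 22 such peaks were left out. Hnrnpa1 and Hnrnpa1l2-ps2, a gene that is nearly a copy of it, may share reads, so the absence of peaks in the first and the peaks in the second are uncertain.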

How the data were processed

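Peak lists of 6 m6A antibody libraries, 3 SSC and 3 iNSC, were analysed out of 12 samples. The 6 input samples were not analysed here. The series title names another assay, and the labels' protocols, which describe m6A RNA pull-down of fragments of about 200 nt, were followed. Reads were processed with cutadapt 1.9.3 and HISAT2 2.0.4, per the submitters' processing notes. Which caller made the peaks, and at which threshold, is not given in the sources used here. The authors deposited 1 score per peak without a stated unit. It was used to rank peaks within a list and to mark those at 3100 or more. The lists hold no read counts, so depth is unknown.

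The notes name mm9, but 4.90% to 12.0% of peaks had an edge on a gene edge of the RefSeq GRCm38.p6 table, against 0% after a shift of 10000 bases, so positions are given on GRCm38, counted from 1. A peak was given to the gene it overlapped by at least 1 base, by strand where genes overlap, and 22 peaks over the members' spans were not counted: 14 went to another gene by strand, 6 were ambiguous between genes of 1 strand and 2 lay on the other strand. Strand came from the promoter table for 44 of 47 members and otherwise from over 90% of a gene's own peaks. Overlapping peaks of 1 gene were merged into sites. Calls by presence have no test. Covered bases were compared by an exact 2-sided permutation test with Benjamini-Hochberg adjustment over 13164 genes. Calls and tests were run on simulated data in which every list of a group held each seeded peak. Replicates that disagree and overlapping genes were not simulated, so that run does not show how firm the calls here are.

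Members, lists and rules were chosen with earlier results of these data known. The genes given in detail were those called in 1 group, those with a group-specific site, the 2 of each family with the most covered bases and those without a peak. From the other splicing genes, the 4 called genes whose lowest percentile over the SSC lists ranked highest were named. Srsf4, Hnrnpm, Srrm2's 6569-base peak and the genes compared beside family members were named after their values were seen. Analyses used Python 3.11.15, pandas 2.3.3, numpy 2.4.6 and scipy 1.17.1.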

Additional observations from a re-analysis of the deposited data

How the results depend on the processing

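The excess of members with a peak in SSC, 12.8 percentage points, kept its direction under every alternative run and ranged from 6.74 to 16.3 when 1 library was left out. Covered length, SSC minus iNSC, was -4.35 kb and 1.29 kb with the better-scoring 50% of each list. Peaks per member differed by -0.17, by 0.0870 with the better-scoring 50% and by -0.41 at equal list length. SSC-only sites numbered 6. They became 5 at equal list length, 4 with peaks of at least 100 bases and 15 when a call needed at least 2 of 3 lists. With 1 library left out they ranged from 6 to 10. The 4 iNSC-only sites became 9 at equal list length, 9 with at least 2 of 3 lists and 2 with peaks of at least 100 bases, and ranged from 4 to 9 with 1 library left out. SSC-only members numbered 1, but 2 with the better-scoring 50% (Nova2 and Tra2b), 7 with at least 2 of 3 lists and 1 to 5 with 1 library left out. iNSC-only members numbered 0, or 0 to 1 with 1 library left out. Shares over all genes were not computed under these other settings. The backgrounds given in the Results apply to the main rule alone and cannot be set beside these counts. Celf2 covered length differed by 401 bases, by -158 at equal list length and by -177 without SSC replicate 1, within a leave-one-out range of -177 to 777 bases. The cause was not tested. Of the 10 group-specific sites, those of Hnrnpc, Srrm2, Nova2 and the 116-base site of Tra2b held in 14 of 14 settings, and the Qk site in 11. Many of these settings could not end a call. A site in all lists of 1 group and none of the other still meets the rule with 1 library left out. The same is true where at least 2 of 3 lists are needed. The count of settings is therefore no measure of how firm a call is. All 4 iNSC-only sites and the SSC-only site of Qk lost their call with the better-scoring 50% of each list, a cut that fell at higher scores in iNSC. Peaks of at least 100 bases ended the iNSC-only calls of Mbnl2 and the 36-base Celf2 site. That setting also ended the SSC-only calls of Qk and the 84-base Tra2b site, and all of these sites are narrower than 100 bases.

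Counting peaks on either strand was an alternative chosen after seeing the data. It moved none of the counts by over 1.5 times. No pairing by replicate number was seen, since deviations of same-numbered libraries correlated at 0.01, -0.02 and 0.03 across genes. Other-numbered libraries correlated at -0.05 to 0.04. This does not exclude a shared origin of same-numbered libraries. A replicate block cannot change the differences of 12.8 points, -4.35 kb and -0.17 peaks per member. By arithmetic, the mean difference of same-numbered libraries equals the difference of group means. The SD of those same-numbered differences was 14.7 points, 17.2 kb and 0.267 peaks per member. The lists carry no read counts, so neither depth nor the RNA level behind a missing peak is known here.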

Other observations

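Hnrnpk, which binds C-rich RNA, had the same 98-base peak in SSC replicates 1 and 2 and in iNSC replicates 2 and 3, at percentiles 96.1, 92.4, 78.6 and 49.2. It was not listed in the other 2 lists, so a site near the score cap in some libraries was missing from others of the same group. Srsf4 gives the reverse case, since its single peak kept its edges in all 6 lists while its percentile varied within each group. It ran from 43.2 to 70.2 in SSC and from 5.73 to 56.0 in iNSC.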
